A study of Mus musculus with 8 samples.

Results

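Chemokines are small secreted proteins that guide cells along gradients, and chemokine receptors are the G protein-coupled receptors that read them. The genes described here are the rows of the count table named as CC or CXC chemokines (Ccl, Cxcl), their receptors (Ccr, Cxcr), atypical receptors (Ackr), and Xcl1, Xcr1, Cx3cl1 and Cx3cr1, leaving out Ccr9. They number 61 of 41730 genes in the table, of which 40 encode ligands, 17 receptors and 4 atypical receptors. In lymphocytes this system sets where a cell goes: CCR7 holds naive and central memory T cells in lymph nodes, inflammatory receptors such as CXCR3 direct effector cells into tissue, and activated CD8 T cells themselves secrete CCL3, CCL4, CCL5 and XCL1.

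The libraries were made from mouse CD8+ T cells of the OT-I genotype, which carry a transgenic T cell receptor for the ovalbumin peptide SIINFEKL. The T cells had been cultured with peptide-pulsed dendritic cells grown from bone marrow lacking the liver X receptors (LXR-/-), and were then purified by flow cytometry. In the RGX-104 group (4 libraries) the culture held 2 uM RGX-104, a synthetic LXR agonist, and in the control group (4 libraries) it held the solvent DMSO. Both groups shared the OT-I T cells and the LXR-/- dendritic cells. The comparison addresses which transcripts of the T cells differed with the agonist when the presenting cells had no LXR to respond with. The labels do not tell whether samples of 1 group were independent cultures or mice. The p-values here therefore cover the variation from library to library, part or all of which could be technical. The labels give neither the age of the mice nor the LXR genotype of the T cells beyond OT-I.

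Library totals lay between 30642316 and 35244624 counts with RGX-104 and between 33942140 and 37714355 in controls. RGX-104 replicates are numbered by their column in the table. Chi-square per degree of freedom, about 1 for libraries that differ by counting alone, was lowest at 1.34 for RGX-104 replicates 2 and 3 and lay between 2.24 and 6.32 for the other pairs within a group, so no pair was merged. Abca1, a well known LXR target, was at 118 to 132 CPM (read counts scaled to a common library size, not to gene length) with RGX-104 and at 1.38 to 2.09 CPM in controls. The CD8 T cell markers Cd3d, Cd3e, Cd3g, Cd8a, Cd8b1, Lck and Cd2 summed to 2053 to 2111 CPM with RGX-104 and 2165 to 2285 CPM in controls. All but Cd2, which had at most 6 counts in a library, were well expressed, and Cd4 had at most 14 counts. Whether a marker gene has a second row in the table was not checked, so a low marker count is not read as absence.

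Of the 61 genes, 21 had enough counts to be tested, and 40 did not. Of the 21, 6 were higher and 3 lower with RGX-104 (edgeR quasi-likelihood test, Benjamini-Hochberg adjusted p under 0.05 over all 13290 tested genes). Of all tested genes 8.95% passed in either direction, 4.82% as higher and 4.13% as lower. DESeq2 and limma-voom each called 6 higher and 3 lower as well, where they called 7.83% and 10% of all tested genes. The genes that rose were the ligand genes Ccl22, Ccl3 and Xcl1 and the receptor genes Ccr8, Cxcr5 and Ccr4. The genes that fell were the ligand gene Cxcl10 and the receptor genes Ccr6 and Ccr7. Each of these 9 genes reached the count minimum in every library of both groups, so none was tested only through the group in which it was high. The groups did not overlap in 11 of the 21 tested genes, against 14.5% of all tested genes. The median log2 fold change of RGX-104 over control was 0.21 over the 21 genes, 0.27 over the 11 tested ligands and 0.04 over the 10 tested receptors, against 0.00072 over all tested genes.

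**Figure D1:**
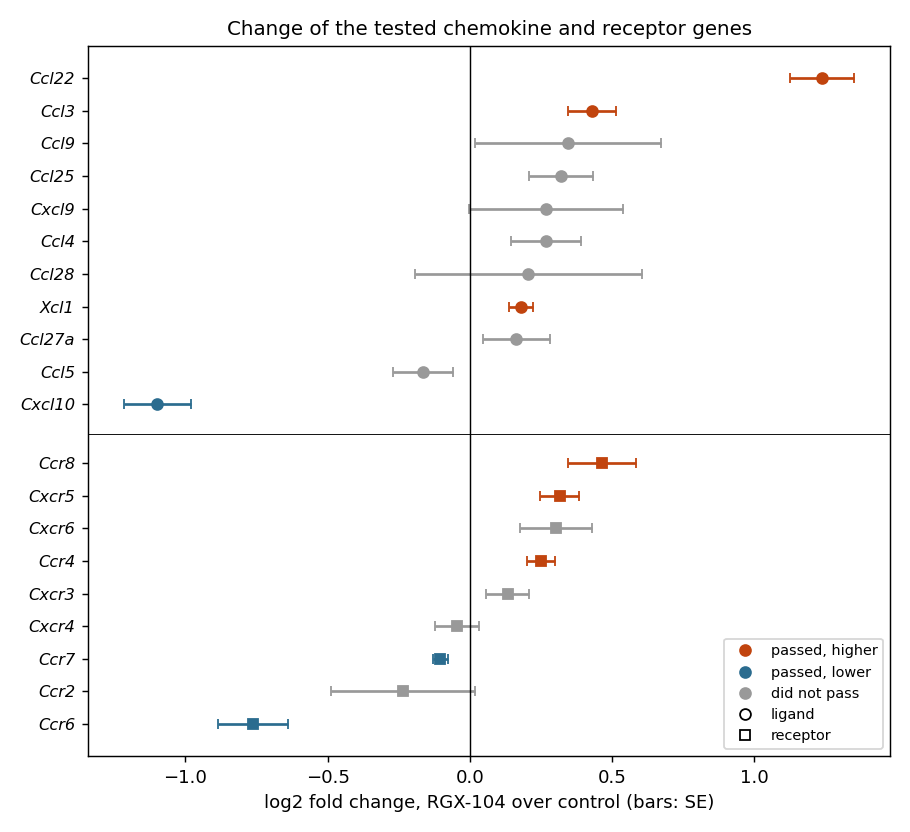
Log2 fold change of RGX-104 over control for 20 of the 21 tested genes, with ligands (circles) above and receptors (squares) below; bars are standard errors from 4 libraries per group. Ccl22 at 1.24 and Cxcl10 at -1.10 lie farthest from 0. A positive value was found for 9 of the 11 ligands, against 6695 of all 13290 tested genes, and 3 ligands passed as higher.

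By length-scaled level, 1 receptor gene stood far above all others of the set. Mean level per kilobase of the longest coding transcript was highest for Ccr7, at 321 CPM per kilobase with RGX-104 and 345 in controls. Next came Ccl4 (75.0 with RGX-104 and 62.1 in controls), Xcl1 (67.1 and 59.2, in the same order) and Ccl3 (26.7 and 19.7). Ccr4 at 21.4 and 18.0 and Cxcr4 at 14.2 and 14.7 CPM per kilobase were the next receptors. In counts alone, Ccr7 made up 70.8% to 72.8% of the summed CPM of all 61 genes in RGX-104 libraries and 75.6% to 76.1% in control libraries. The 40 ligand genes summed to 115 to 136 CPM with RGX-104 and 98.7 to 110 CPM in controls, ranges that do not overlap. The 17 receptor genes summed to 738 to 772 CPM with RGX-104 and 770 to 817 CPM in controls, ranges that touch only at their ends. Most of that sum was Ccr7, at a mean of 634 CPM with RGX-104 and 682 CPM in controls. Of the 10 tested receptors, 3 were higher and 2, Ccr7 among them, lower, so the sum does not describe the receptors as a class.

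**Figure D2:**
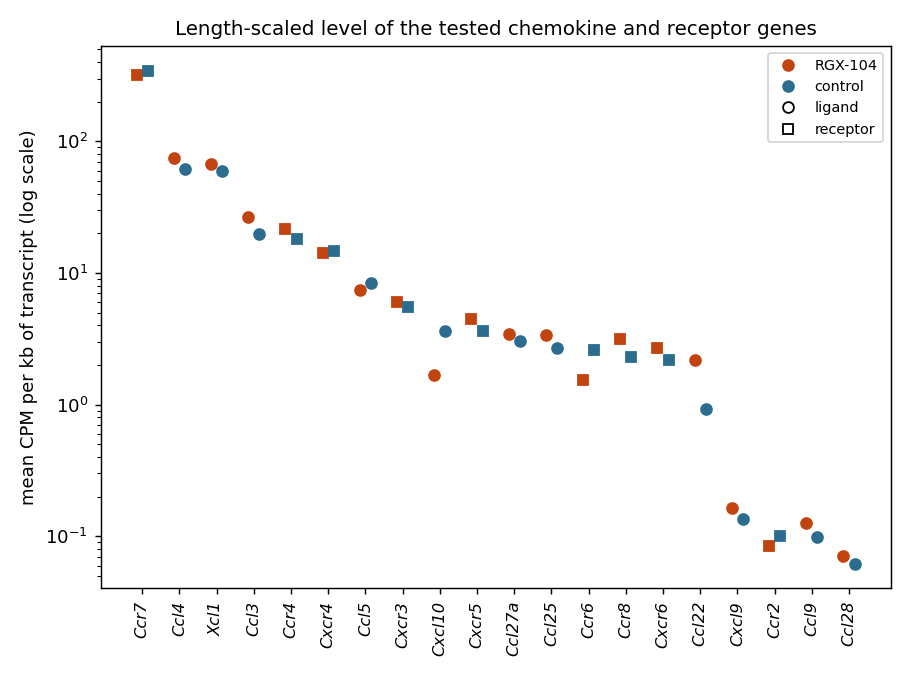
Mean level of 20 of the 21 tested genes in CPM per kilobase of the longest coding transcript, on a log axis, with RGX-104 left of control for each gene. Ccr7 stands above all other genes at 321 and 345, and Cxcl9, Ccr2, Ccl9 and Ccl28 lie under 0.2 in both groups.

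The 3 genes with the largest changes among those that passed are shown by the 250 bases before their annotated start, since they move in opposite directions and since Cxcl10 is a classic interferon-induced gene. All 3 sequences are from RefSeq on GRCm38.p6 and read 5′ to 3′ on the strand of the gene. Capitals mark every match, on either strand, to 1 of 3 motifs: GAAA, any 2 bases and GAAA again (the core of the interferon-stimulated response element), TTCNNNGAA (the gamma-activated site bound by STAT proteins), and GGGA, any 4 bases and CC (a form of the NF-kappaB site). Cxcl10 lies on the minus strand at chr5:92348890-92349139, Ccl22 on the plus strand at chr8:94745434-94745683, and Ccr6 on the plus strand at chr17:8235793-8236042, for the first of its annotated starts.
Cxcl10: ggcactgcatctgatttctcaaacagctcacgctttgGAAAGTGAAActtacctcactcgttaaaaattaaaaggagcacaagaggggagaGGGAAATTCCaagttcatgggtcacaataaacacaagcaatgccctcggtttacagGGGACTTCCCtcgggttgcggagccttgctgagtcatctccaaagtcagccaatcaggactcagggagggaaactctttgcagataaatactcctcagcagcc
Ccl22: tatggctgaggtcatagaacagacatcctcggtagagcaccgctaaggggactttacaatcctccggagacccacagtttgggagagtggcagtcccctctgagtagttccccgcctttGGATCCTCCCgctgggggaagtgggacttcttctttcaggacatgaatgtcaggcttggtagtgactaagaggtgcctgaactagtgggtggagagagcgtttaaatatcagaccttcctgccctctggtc
Ccr6: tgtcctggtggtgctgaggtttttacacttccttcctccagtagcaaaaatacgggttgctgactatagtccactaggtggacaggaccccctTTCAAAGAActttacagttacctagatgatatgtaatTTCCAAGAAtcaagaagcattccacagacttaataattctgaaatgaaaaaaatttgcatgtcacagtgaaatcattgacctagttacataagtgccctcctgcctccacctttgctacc

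The Cxcl10 window held GAAAGTGAAA from 213 to 204 bases before the start and the NF-kappaB letters at 159 to 150 and at 103 to 94 bases before it. The Ccl22 window held only an NF-kappaB match, on the opposite strand, from 131 to 122 bases before the start. The Ccr6 window held TTCNNNGAA at 157 to 149 and at 120 to 112 bases before the start. Among 32851 RefSeq windows of the same length, 2.98% held the interferon motif, 7.02% TTCNNNGAA and 17.6% the NF-kappaB motif. The marked matches of different motifs did not overlap in these windows. Of the 16 tested genes with a window in the table, 1 held the interferon motif (Cxcl10), 1 held TTCNNNGAA (Ccr6) and 6 held the NF-kappaB motif. Ccr6 is among these 6 as well, through the window of its other annotated start, which is not shown and held no TTCNNNGAA. A gene was counted if any of its windows held a match, whereas the percentages above are shares of windows. A match describes the letters only and is no measure of binding.

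Ccl22 encodes a ligand of CCR4 that is made mainly by dendritic cells and macrophages and also by activated T cells. It was at 5.21, 4.89, 4.42 and 4.81 CPM in the RGX-104 libraries, against 2.38, 1.89, 2.10 and 1.83 CPM in the control libraries. All 4 RGX-104 libraries were above all 4 controls, and even the lowest was well above the highest control. This was a 2.36-fold rise, or a log2 fold change of 1.24 ± 0.11 (SE) (edgeR adjusted p = 1.45e-08). Ccl22 and Cxcl10 were also the ligand genes that passed a test against a fold of 1.2, which 0.828% of all tested genes passed.

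Because dendritic cells shared the culture, their transcripts are given beside this result. The defining transcripts of bone marrow-derived dendritic cells chosen here, Fcer1g, Itgax, Tyrobp, Spi1, Csf1r and Lyz2, summed to 1.11 to 1.62 CPM with RGX-104 and 1.08 to 1.44 CPM in controls, with at most 34 counts for any of them in a library. Ccl22 alone exceeded that sum in every library, in CPM that are not scaled to gene length. The level of Ccl22 relative to these transcripts within dendritic cells was not measured here, so this comparison does not bear on its source. Which cells the Ccl22 transcripts came from was not tested. In the wider dendritic cell list of 15 genes, Cd74 and Cd80 were higher (2 of 11 tested, 18.2%, against 8.95% of all tested genes in either direction) and 0 were lower by edgeR, DESeq2 or limma-voom. At an unadjusted p under 0.05 edgeR gave 5 higher and 0 lower, where 1526 of all 13290 tested genes were higher and 1419 lower. A positive log2 fold change was found for all 11 tested genes of this list and for 6695 of all 13290 tested genes. The median over the 11 was 0.25, against 0.00072 over all tested genes. Zbtb46 and Fscn1 did not pass, with log2 fold changes of 0.37 ± 0.12 and 0.28 ± 0.09 (SE; edgeR adjusted p = 0.0552 and 0.0669). That list summed to 371 to 390 CPM with RGX-104 and 348 to 359 CPM in controls, mostly from Ly75, Cd83, Cst3, Batf3, Cd80 and Cd74. Ly75 alone was at 157 CPM with RGX-104 and 153 CPM in controls. Which cells made the transcripts of this wider list was not tested. Clec9a, Cd209a, Siglech and Clec10a had at most 2 counts, and Clec10a was at 0 throughout. The part of these transcripts in the Ccl22 result was not tested. In these bulk libraries fewer cells of a type and less RNA per cell cannot be told apart.

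The gene of the other CCR4 ligand, Ccl17, and Cx3cl1, which encodes the membrane-bound ligand of CX3CR1, lie beside Ccl22 in a cluster of 66355 bases on chromosome 8 (GRCm38, 94745684 to 94812038). Both were far below the count minimum. Cx3cl1 had 3, 4, 5 and 3 counts in the RGX-104 libraries and 0, 2, 1 and 0 in the controls, and Ccl17 had 5, 4, 6 and 4 counts with RGX-104 and 1, 1, 2 and 4 in the controls. The Cx3cl1 groups did not overlap. The Ccl17 groups met at 4 counts and were separate in CPM only by a small margin. Tested without a count minimum over 22918 genes, neither passed (edgeR adjusted p = 0.0861 for Cx3cl1 and 0.271 for Ccl17). These were the only 2 of the 40 untested genes with an unadjusted p under 0.05 in that fit, and 0 of them had an adjusted p under 0.05. They were singled out after their values were seen.

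**Figure D3:**
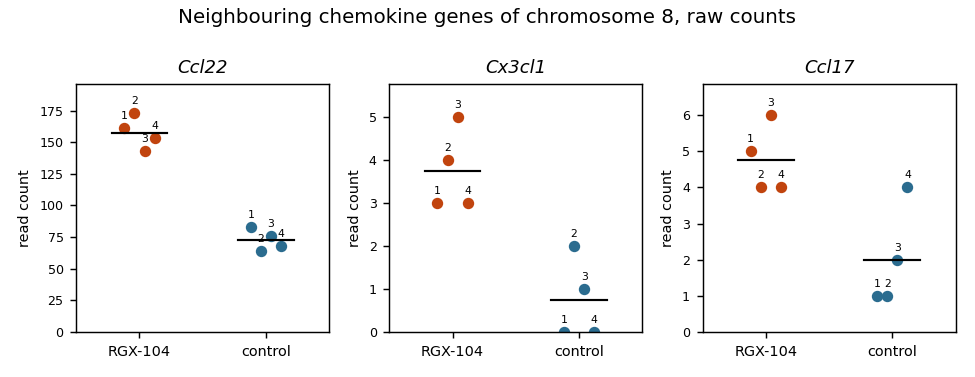
Raw read counts of Ccl22, Cx3cl1 and Ccl17 per library, with RGX-104 left of control, bars at the group mean and numbers giving the replicate; each panel has its own scale. Ccl22 had 143 to 173 counts with RGX-104 and 64 to 83 in controls, while Cx3cl1 and Ccl17 stayed at or below 6 counts.

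Ccr4, the receptor for both of these CC ligands, which guides T cells to skin and to activated dendritic cells, rose as well. It was at 59.6, 58.1, 59.9 and 62.5 CPM with RGX-104, against 50.2, 49.7, 45.6 and 56.2 CPM in controls. The groups did not overlap, but control replicate 4 lay near the RGX-104 libraries. Ccr4 rose 1.19-fold, by a log2 fold change of 0.25 ± 0.05 (SE; edgeR adjusted p = 0.00218).

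Cxcl10 encodes a ligand of CXCR3 that draws effector T cells and NK cells to inflamed tissue. It was at 2.43, 2.40, 2.04 and 2.26 CPM with RGX-104, against 4.24, 4.54, 5.68 and 5.09 CPM in controls. Each RGX-104 library was below every control, and the spread among RGX-104 libraries was the smaller one. Cxcl10 fell to 0.467 of its control level, a log2 fold change of -1.10 ± 0.12 (SE; edgeR adjusted p = 1.98e-07). Cxcl10 overlaps Art3 in the annotation, so reads may be shared between them if strand was not used in counting.

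The other CXCR3 ligand genes stand beside it in a cluster of 41966 bases on chromosome 5. Cxcl9, at 0.440 to 0.509 CPM with RGX-104 and 0.265 to 0.516 CPM in controls, did not pass (log2 fold change 0.27 ± 0.27, edgeR adjusted p = 0.605). Cxcl11, annotated as a transcribed pseudogene in this build, had 1 to 4 counts in the libraries of either group. The receptor gene Cxcr3, a mark of effector and memory CD8 T cells, averaged 10.4 ± 0.970 CPM with RGX-104 and 9.53 ± 0.822 CPM in controls (SD, n = 4 each). Its groups overlapped and it did not pass (log2 fold change 0.13 ± 0.08 SE, edgeR adjusted p = 0.316).

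Among the inflammatory CC ligands that activated CD8 T cells secrete, Ccl3 rose. Its level was 23.4, 17.8, 18.6 and 21.9 CPM with RGX-104 (replicates 1 to 4), against 15.5, 13.7, 14.9 and 16.4 CPM in controls. All RGX-104 libraries were above all controls, with replicates 1 and 4 higher than 2 and 3. Ccl3 rose 1.35-fold, a log2 fold change of 0.43 ± 0.08 (SE; edgeR adjusted p = 0.00548).

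Ccl4, the close partner of Ccl3 with which it is usually secreted, was at 56.4, 41.6, 44.2 and 55.7 CPM with RGX-104 and 40.0, 37.1, 42.3 and 44.7 CPM in controls. RGX-104 replicates 1 and 4 were above every control, while replicates 2 and 3 lay within the control range. It did not pass (log2 fold change 0.27 ± 0.12 SE, edgeR adjusted p = 0.273). In the RefSeq annotation the Ccl4 gene model overlaps Ccl3, so reads of the pair may not be fully told apart.

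Ccl5, a chemokine gene whose transcript memory CD8 T cells store, averaged 3.98 ± 0.460 CPM with RGX-104 and 4.48 ± 0.385 CPM in controls (SD, n = 4 each) and did not pass (edgeR adjusted p = 0.371). Ccl9 was low, at 0.186 to 0.550 CPM with RGX-104 and 0.270 to 0.324 CPM in controls (edgeR adjusted p = 0.576), and Ccl6 had at most 3 counts. Ccl3, Ccl4, Ccl5, Ccl6 and Ccl9 share a cluster of 138906 bases on chromosome 11, of which Ccl3 alone passed; whether its change differed from that of its neighbours was not tested.

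Ccr2, whose protein responds to CCL2 and marks monocytes and some effector T cells, was low and did not pass (0.487 ± 0.105 CPM with RGX-104 and 0.572 ± 0.0961 CPM in controls, SD, n = 4 each; edgeR adjusted p = 0.630). Ccr1 had at most 2 counts and Ccr3 at most 5.

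Xcl1, which encodes the chemokine that attracts XCR1-bearing cross-presenting dendritic cells, was at 36.4, 35.5, 34.4 and 34.2 CPM with RGX-104, against 30.4, 30.6, 33.4 and 29.5 CPM in controls. The groups did not overlap, with control replicate 3 close to the lowest RGX-104 library. The rise was small, at a log2 fold change of 0.18 ± 0.04 (SE) or 1.13-fold (edgeR adjusted p = 0.00701). Its receptor gene Xcr1 had 7 counts in each RGX-104 library and 4 to 7 in the controls.

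Ccr7, the receptor that brings T cells and mature dendritic cells into lymph nodes, was the most abundant of these transcripts and fell slightly. It was at 619, 645, 632 and 641 CPM with RGX-104, against 680, 657, 689 and 701 CPM in controls. The groups were separate by a narrow margin. The log2 fold change was -0.10 ± 0.03 (SE), a change of -6.95% (edgeR adjusted p = 0.0125), and it missed the threshold without RGX-104 replicate 1 (adjusted p = 0.0537) and without control replicate 3 (adjusted p = 0.0517). The T cell genes Cd3e, Cd8a and Cd8b1 fell by similar amounts, with log2 fold changes of -0.14, -0.12 and -0.12 (edgeR adjusted p = 0.00295, 0.00273 and 0.00264), while Lck rose by 0.10. Cd3d and Cd3g, of the same marker list, did not pass (log2 fold changes -0.01 and -0.02, edgeR adjusted p = 0.879 and 0.728). Their part in the Ccr7 result was not tested.

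The ligand genes of CCR7, Ccl19, Ccl21a, Ccl21b, Ccl21c and Ccl21d, had 0 counts in every library. A count of 0 allows up to 0.0971 CPM in the shallowest library, which covers counting error only. The Ccl21 genes are near-identical copies whose counts are uncertain, so these zeros are not read as absence.

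Ccr6, the receptor for CCL20 on interleukin-17-producing and some memory T cells, had the most negative fold change among the 10 tested receptors. It was at 2.62, 2.83, 2.47 and 2.80 CPM with RGX-104, against 4.73, 4.39, 3.56 and 5.53 CPM in controls. The RGX-104 libraries lay close together and below all controls, which were more spread. The log2 fold change was -0.76 ± 0.12 (SE; edgeR adjusted p = 1.23e-04), a fall to 0.589 of the control level, and this receptor gene also passed the test against a fold of 1.2. Its ligand gene Ccl20 had 1 count in a single control library and 0 in all others.

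Ccr8, a receptor of skin-resident, regulatory and type 2 T cells, was at 3.20, 3.90, 4.39 and 3.39 CPM with RGX-104, against 2.84, 2.36, 2.68 and 2.91 CPM in controls. The groups did not overlap, but the lowest RGX-104 library was near the highest control. Ccr8 rose 1.38-fold, a log2 fold change of 0.47 ± 0.12 (SE; edgeR adjusted p = 0.0128), and without RGX-104 replicate 3 the adjusted p was 0.0777. Its ligand gene Ccl1 had at most 4 counts.

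Cxcr5, the receptor that leads follicular T cells and B cells toward CXCL13, was at 13.2, 13.3, 13.3 and 11.2 CPM with RGX-104, against 10.6, 10.8, 9.30 and 10.3 CPM in controls. RGX-104 replicate 4 lay apart from the other 3, yet still above all controls. The log2 fold change was 0.32 ± 0.07 (SE), a 1.24-fold rise (edgeR adjusted p = 0.00312). Cxcr5 overlaps Bcl9l in the annotation. Overlaps with other annotated genes were also found for Ccr6, Cxcr6, Ccl5, Ccl25 and Ccl27a, so their counts may hold reads of a neighbour. The ligand gene Cxcl13 had 2 counts in 1 RGX-104 library and 0 elsewhere. Of the B cell markers, given here because B cells carry Cxcr5, Ms4a1 was at 0, Pax5 had at most 1 count and Cd79a at most 15, whereas Cd79b was at 4.24 CPM with RGX-104 and 4.26 CPM in controls and did not pass (edgeR adjusted p = 0.980). Their part in the Cxcr5 result was not tested.

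**Figure D4:**
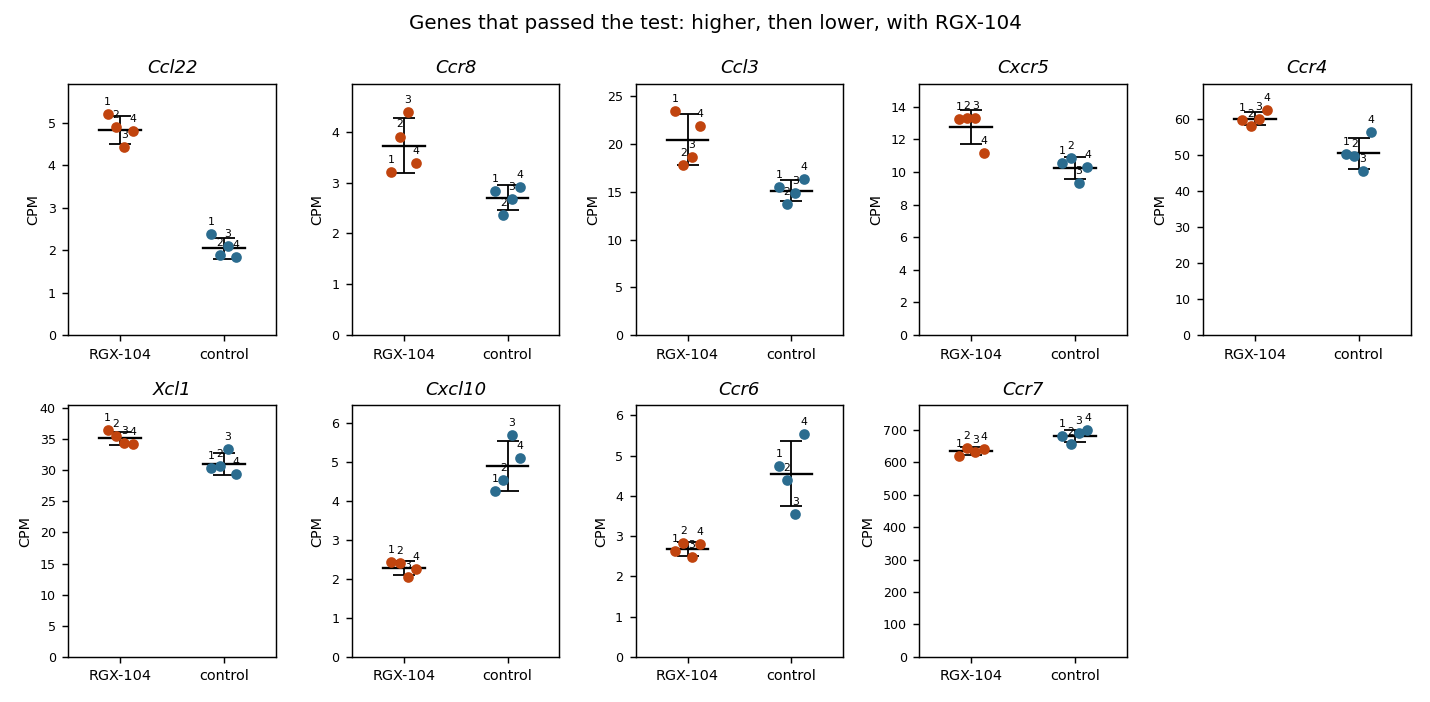
CPM of the 9 genes that passed the test, each library a point numbered by replicate, RGX-104 left of control, bars at the mean and whiskers 1 SD (n = 4 each); all axes start at 0. In every panel the groups are separate, by a wide gap for Ccl22 (4.42 to 5.21 with RGX-104, 1.83 to 2.38 in controls) and a narrow one for Ccr7 and Xcl1.

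The receptor genes Cxcr4 and Cxcr6 did not pass. Cxcr4, the receptor for CXCL12 that retains cells in bone marrow, averaged 25.7 ± 2.87 CPM with RGX-104 and 26.6 ± 2.03 CPM in controls (SD, n = 4 each; edgeR adjusted p = 0.793). Cxcr6, which marks tissue-resident CD8 T cells, averaged 5.11 ± 0.490 CPM with RGX-104 and 4.15 ± 0.927 CPM in controls (edgeR adjusted p = 0.153). Control replicate 2 stood high at 5.34 CPM, against 3.21 to 4.39 CPM in the other controls, and without it the log2 fold change was 0.44 with an adjusted p of 0.0171. The ligand gene Cxcl16 had 0 counts, but a second row of that gene with a numbered suffix stands in the table, so its count is not read as low expression.

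Among the remaining ligand genes, Ccl25, whose protein is made in thymus and small intestine, averaged 3.57 ± 0.301 CPM with RGX-104 and 2.85 ± 0.278 CPM in controls (SD, n = 4 each). It did not pass (log2 fold change 0.32 ± 0.11 SE, edgeR adjusted p = 0.0762), but without control replicate 1 the adjusted p was 0.0352. Ccl27a, a skin chemokine gene that may share reads with its copy Ccl27b (0 counts), was at 2.82 to 2.97 CPM with RGX-104 and 2.15 to 2.81 CPM in controls. Its groups were separate by a very small margin and it did not pass (edgeR adjusted p = 0.446). Ccl28, a mucosal ligand of CCR10, was low at 0.124 to 0.346 CPM with RGX-104 and 0.0860 to 0.331 CPM in controls (edgeR adjusted p = 0.815).

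**Figure D5:**
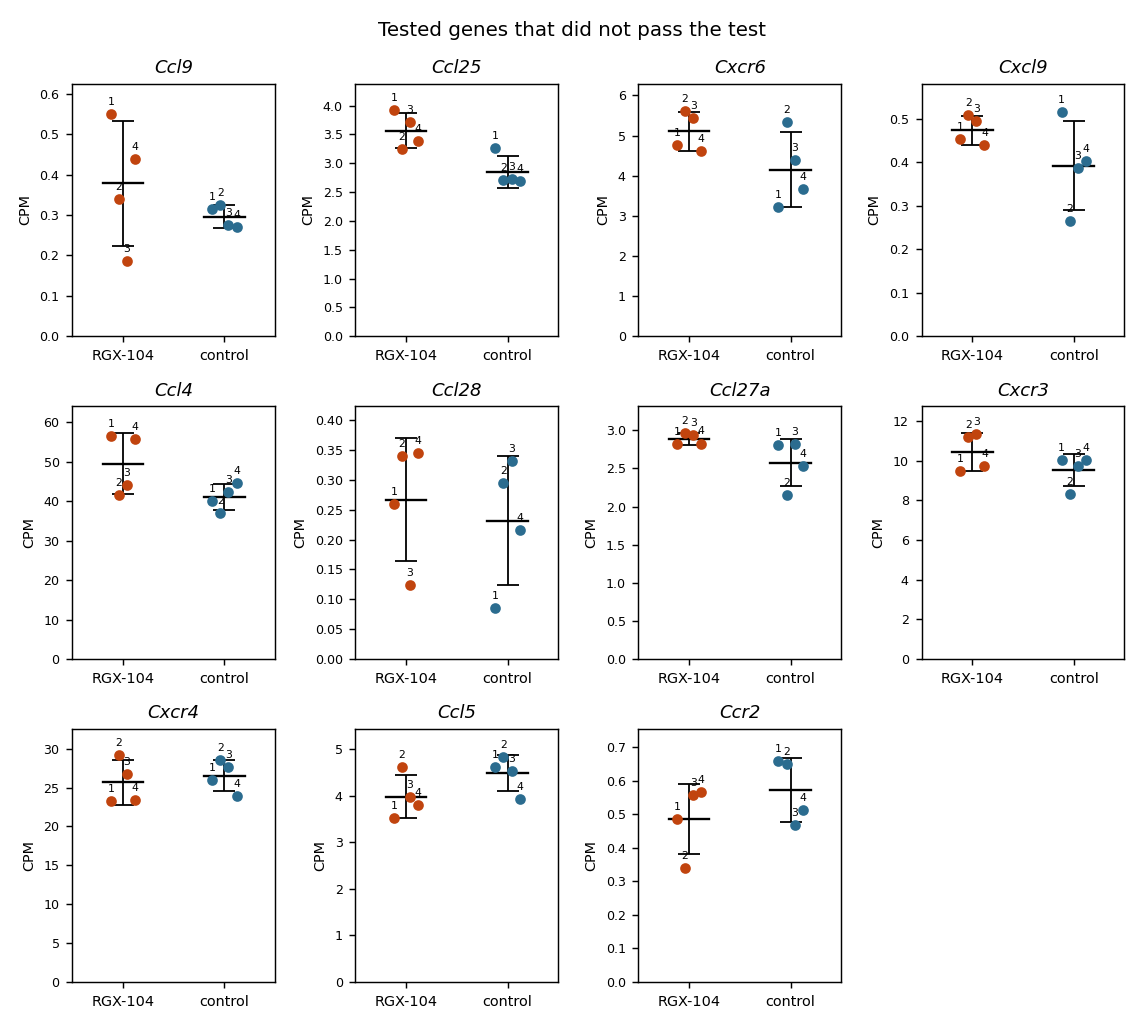
CPM of 11 tested genes that did not pass, each library a point numbered by replicate, RGX-104 left of control, bars at the mean and whiskers 1 SD (n = 4 each); all axes start at 0. The groups are separate for Ccl27a and overlap for the other 10; Ccl4 splits into replicates 1 and 4 (56.4 and 55.7) and replicates 2 and 3 (41.6 and 44.2) with RGX-104.

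Of the 40 untested genes, 23 had 0 counts in every library and 17 had at least 1 count, with 7 the highest. The monocyte-attracting genes Ccl2, Ccl7, Ccl8 and Ccl12, the eosinophil ligands Ccl11 and Ccl26 (with at most 4 counts for their relative Ccl24), and the neutrophil ligands Cxcl1, Cxcl2, Cxcl3, Cxcl5 and Cxcl15 were all at 0. Cxcl3, Cxcl5 and Cxcl15 also have a row with a numbered suffix and are not read as low. Cxcl12, Cxcl14 and Cxcl17 were at 0 as well. The neutrophil receptor genes Cxcr1 and Cxcr2 had at most 3 counts, Cx3cr1 at most 7 and Ccr10 at most 1. Of the atypical receptors, which bind chemokines without G protein signalling, Ackr1 and Ackr3 were at 0, Ackr2 had at most 7 counts and Ackr4 at most 6.

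RGX-104 libraries differed among themselves in several of these genes. Replicates 1 and 4 were both above replicates 2 and 3 in 3 of the 21 tested genes, Ccl3, Ccl4 and Ccl9. They were both below in 8, which were Cxcr3, Cxcr4, Cxcr5, Cxcr6, Ccr8, Ccl5, Ccl27a and Cxcl9. Over all tested genes the shares were 22.6% above and 22.2% below. Ifng, the gene of the effector cytokine interferon gamma, divided the same libraries, with 89.0 and 88.3 CPM in replicates 1 and 4 and 64.2 and 64.0 CPM in replicates 2 and 3, against 30.2 to 38.8 CPM in controls. In Cxcr4, for example, replicates 1 and 4 had 23.3 and 23.4 CPM and replicates 2 and 3 had 29.2 and 26.8 CPM. What set these libraries apart was not tested.

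The list of genes that act after a chemokine binds its receptor held 47 signalling genes. Counts sufficed to test 42, of which 4 were higher and 0 lower (9.52% passed, against 8.95% of all tested genes), with a median log2 fold change of -0.0017. At an unadjusted p under 0.05 edgeR gave 7 higher and 6 lower, where 1526 of all 13290 tested genes were higher and 1419 lower. By adjusted p DESeq2 called 4 and 0, and limma-voom 4 and 1. The genes that rose were Plcb2, a phospholipase C activated by G protein beta-gamma subunits (log2 fold change 0.23 ± 0.04 SE), the gamma subunit gene Gng2 (0.15 ± 0.03), the Rac exchange factor gene Prex1 (0.15 ± 0.03) and Pik3cg, the catalytic subunit of the gamma isoform of phosphoinositide 3-kinase (0.13 ± 0.04). Their edgeR adjusted p-values were 0.00128, 0.00307, 0.00498 and 0.0382. The inhibitory G protein gene Gnai2, the main transducer of chemokine receptors in lymphocytes, was at 414 CPM with RGX-104 and 425 CPM in controls, and Dock2, needed for lymphocyte migration, at 265 CPM with RGX-104 and 257 CPM in controls. Neither passed (edgeR adjusted p = 0.424 and 0.440), nor did the receptor kinase gene Grk2 (adjusted p = 0.133).

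Of 32 other receptor genes for chemoattractants, 17 were tested, with 1 higher and 1 lower (11.8% passed, against 8.95% of all tested genes). By edgeR, 6 were higher and 3 lower at an unadjusted p under 0.05, where 1526 of all 13290 tested genes were higher and 1419 lower. The groups did not overlap in 7 of the 17, against 14.5% of all tested genes. The median log2 fold change of the 17 was 0.07, against 0.00072 over all tested genes. Gpr15, a receptor that brings T cells to the colon and skin, was at 3.85, 3.99, 4.08 and 3.49 CPM with RGX-104, against 2.49, 2.00, 2.12 and 2.64 CPM in controls. The groups did not overlap, and the log2 fold change was 0.73 ± 0.12 (SE; edgeR adjusted p = 1.05e-04). Gpr18 was at 29.0, 30.1, 29.8 and 28.3 CPM with RGX-104, against 32.8, 34.0, 35.1 and 34.4 CPM in controls, a log2 fold change of -0.22 ± 0.04 (SE; edgeR adjusted p = 5.33e-04). S1pr1, which lets T cells leave lymph nodes, was at 14.4 CPM with RGX-104 and 12.9 CPM in controls and did not pass (edgeR adjusted p = 0.128). Ccrl2, a chemokine receptor-like gene that the naming rule does not take in, was at 1.92 CPM with RGX-104 and 2.48 CPM in controls and did not pass (log2 fold change -0.37 ± 0.13 SE, edgeR adjusted p = 0.0848).

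The summed levels of the other marker lists are given here, and their part in the results above was not tested. The myeloid list of 13 genes summed to 6.19 to 7.38 CPM with RGX-104 and 7.22 to 8.34 CPM in controls, mostly from Cd68 and Mpeg1, and Mpeg1 fell (edgeR adjusted p = 0.00733). The 4 NK cell markers summed to 0.566 to 1.05 CPM with RGX-104 and 0.430 to 0.889 CPM in controls, with Ncr1 and Klra8 at 0. The 5 neutrophil markers summed to at most 0.198 CPM with RGX-104 and 0.0539 CPM in controls.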

How the data were processed

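RNA of 8 libraries was measured, and the authors deposited raw gene counts for them in 1 table. The submitters' processing notes list build GRCm38 and the tools STAR 2.7.5, cutadapt 2.10, DESeq2 1.4 and R 4.1.0. How reads were assigned to genes, with which annotation and whether by strand, is not given in the sources used here, so counts of overlapping genes and near-identical copies are uncertain. Columns not used numbered 0.

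Genes were kept by filterByExpr of edgeR 4.0.16 (minimum count 10, minimum total 15), which left 13290 of 41730. The test was edgeR's quasi-likelihood F-test with robust fitting and trimmed mean of M values (TMM) scaling in R 4.3.3, with no covariate beside treatment, and p-values were adjusted over all tested genes by Benjamini-Hochberg. CPM were computed from the deposited counts on TMM-scaled library sizes. Standard errors came from the F statistic. In simulated counts for RGX-104 over control (13290 genes, 50 changed at each fold), the changed genes were drawn from those of mean log2 CPM above 1. Of the changed genes 28% were found at a fold of 1.1, 94% at 1.25, 98% at 1.5 and 100% at 2. Of the calls 6.98% were false. Cxcl9, Ccl9, Ccr2 and Ccl28 lay below that level, so these shares do not cover them. Alternatives were DESeq2 1.42.0, limma-voom (limma 3.58.1), other scalings, other filters, a test against a fold of 1.2, leaving out each library and, added later, a block on the number in the column name.

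Coordinates and promoter windows came from RefSeq on GRCm38.p6, which matched all 61 genes for coordinates and 45 for windows, and transcript lengths from GENCODE. Members and gene lists were chosen with earlier results of these data known. Every gene that passed is named with its values, every other tested gene but 1 by its level and adjusted p, and untested genes by their highest count. That gene, which did not pass, and 1 B cell marker count in the totals and are not reported here. Of the signalling and other-receptor lists, up to 6 genes that passed are named. Gnai2, Dock2, Grk2, S1pr1 and Ccrl2, and the motifs searched, were chosen after values were seen.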

Additional observations from a re-analysis of the deposited data

Results flagged for a closer look

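By Dixon's criterion, 2 of the 40 gene and group combinations checked contained a library apart from its fellows, and about 2 would be flagged by chance. For Cxcr5 it was RGX-104 replicate 4, with 11.2 CPM where the remaining RGX-104 libraries had 13.2 to 13.3 CPM. It was still above all controls. For Ccl25 it was control replicate 1, with 3.27 CPM where the remaining controls had 2.70 to 2.73 CPM, which placed that library inside the RGX-104 range of 3.25 to 3.92 CPM.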

How the results depend on the processing

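Ccl22, Cxcl10 and Ccr6 kept their direction and passed in all 17 alternatives. The log2 fold change lay between 1.19 and 1.32 for Ccl22, between -1.16 and -1.02 for Cxcl10 and between -0.87 and -0.65 for Ccr6. Against a fold of 1.2, 1 of the 21 genes was higher, 65 of all genes were higher and 45 lower, 0 signalling genes were higher and 0 other receptor genes lower, since that test asks for a larger change. Leaving out each library gave 5 to 7 chemokine and receptor genes higher and 2 to 3 lower, 0 to 2 signalling genes lower (2 without control replicate 1, 1 without RGX-104 replicate 4) and 1 to 2 other receptor genes higher (2 without control replicate 1). Limma-voom called 1 signalling gene lower, and upper-quartile scaling 2 other receptor genes higher; the cause was not tested. Leaving out single libraries took the log2 fold change of Ccl28, which did not pass in any alternative, between -0.060 (without control replicate 1) and 0.44 (without RGX-104 replicate 3). The scalings moved the median log2 fold change of all genes to at most 0.013. Sample titles carry 8 different numbers, but the deposited columns repeat the numbers 1 to 4 in both groups. Deviations from the group means correlated at 0.043 to 0.157 between same-numbered libraries and at -0.117 to 0.0447 between others, and 7 of 8 libraries correlated best with their own number, a hint from the data only. A replicate block on that number, chosen after seeing the data, called 1109 genes higher and 906 lower, 9 and 3 of the chemokine and receptor genes, 7 and 2 of the signalling genes and 4 and 2 of the other receptor genes. All 9 chemokine and receptor genes that passed without the block passed with it, and Ccl25, Cxcr6 and Ccl4 did so too (edgeR adjusted p = 0.0311, 0.0204 and 0.0175). At these depths genes of a few counts, such as Ccl17, Cx3cl1 and Xcr1, could not be judged.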
